A study of Mus musculus with 1 sample.

Results

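The transcripts examined here were those of Wnt ligands, their receptors and inhibitors in control mixed glia from the mouse ventral midbrain (VM). Members were chosen by gene symbol, with earlier results of these data known. They were the symbols beginning with Wnt, Fzd, Sfrp, Dkk or Rspo followed by a digit, together with Lrp5, Lrp6, Frzb, Wif1, Ctnnb1, Axin1, Axin2, Lef1 and Tcf7l2. This gave 50 genes of 23282 rows, each in a single row and each protein-coding, namely 19 ligands, 10 receptors, 2 co-receptors, 4 R-spondins, 10 secreted inhibitors and 5 intracellular components. The cells were primary glia of ICR(CD-1) outbred pups at postnatal day 5, grown in serum-containing medium and passaged on poly-d-lysine. The study examined how an inhibitor of the kinase SGK1 changes such glia. The library used here was labelled as the control, with mAst and DMSO in its column name. Neither the number or sex of the pups nor whether a toxin was added to this culture was stated. There was 1 library and no replicate, so no value carries an error and no difference was tested.

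Wnt proteins are secreted, lipid-modified ligands that bind Frizzled receptors. Together with the co-receptors Lrp5 and Lrp6, Frizzled receptors stop the breakdown of β-catenin, which then enters the nucleus and activates target genes with the factors of the TCF/LEF family. Other Wnt signals act without β-catenin, through planar cell polarity or calcium. In the embryonic midbrain, Wnt1 is needed for the region to form, and Wnt1 and Wnt5a act in the development of dopamine neurons. Secreted inhibitors act outside the cell. Sfrp proteins, Frzb and Wif1 bind Wnt proteins, whereas Dkk1, Dkk2 and Dkk4 bind the Lrp co-receptors.

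Values are normalised read counts as deposited. To compare genes, each was also expressed per kb of annotated exon and per 1000000 of the sum of all values, which is called the level below. A gene with a normalised read count of 10 or more was called detected. By this rule 38 of the 50 members (76%) were detected, against 67.2% of all rows. The median normalised read count was 96 over the 50 members, 119 over all rows and 469 over the 15648 detected rows. The median over all 50 members, undetected ones included, was thus above 22.7% of detected genes. Over the 38 detected members alone the median was 202. In levels, the median was 1.00 over the members and 1.12 over the 22900 rows with a length. Members above the median of detected genes numbered 11 by normalised read count and 11 by level. All members together held 0.125% of the summed values, or 0.0749% without Ctnnb1.

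The RNA came from a mix of cells, and its sum of values was 27569507. Counts of detected markers stand beside 67.2% of all rows detected. Defining markers of astrocytes (6 of 6 genes, 1850 to 17222) and of microglia (6 of 6, 1218 to 53801) were detected, as the label of glia implies. Mesenchymal markers were also present (7 of 7, 188 to 16915), as were those of the oligodendrocyte lineage (5 of 5, 48 to 16349). Neuronal markers reached at most 124, with Slc17a6 at 0, and endothelial markers at most 119, with Tek at 0. Of the ependymal and choroid plexus list 3 of 4 genes were detected, with Foxj1 at 1353, Rsph1 at 1194, Tmem212 at 14 and Ttr at 2. Of the midbrain dopamine list 4 of 7 genes were detected, namely the transcription factor genes En1 at 259, Nr4a2 at 99, Lmx1a at 46 and Foxa2 at 20, while Slc6a3 was at 7, Th at 3 and Pitx3 at 0. Which of these cells carried a given Wnt transcript was not tested, and fewer cells of a type cannot be told apart from less RNA per cell.

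**Figure D1:**
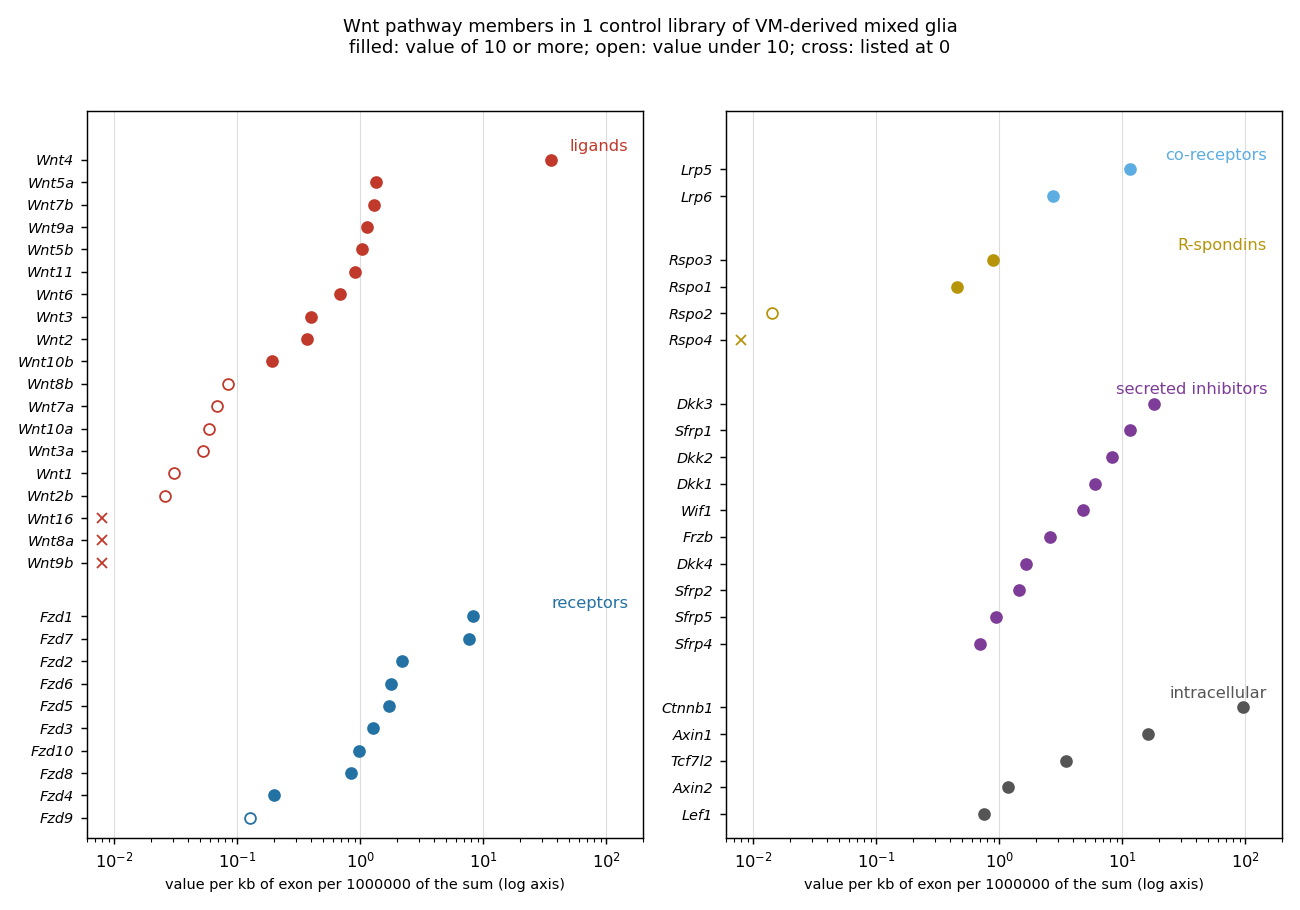
Level of each of the 50 members, as normalised read count per kb of exon per 1000000 of the summed values (log axis), in the 1 control library, grouped by role. Each point is a gene. Filled points are at 10 or more, open points are below 10 and crosses mark genes listed at 0. Wnt4 at 35.5 stood far to the right of the other ligands, which lay at or below 1.34.

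Among the ligands, a single gene held most of the transcript. Wnt4, which acts in kidney and female reproductive tract development, had a normalised read count of 4100 and a level of 35.5, above 90.7% of detected genes. It made up 82.2% of the summed level of the 19 ligands, and between 80.1% and 82.8% under other length measures. Its level was 4.62 times that of the other 18 ligands combined and 26.6 times that of the next ligand, Wnt5a. This ratio was 23.8 with the longest transcript, 15.4 with coding length and 14.2 as deposited. The gene lies on the plus strand of chromosome 4, from 137277489 to 137299726 in GRCm38. Its 5 exon blocks overlap no other annotated gene.

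The RefSeq promoter window of Wnt4 (GRCm38.p6, chr4:137277385-137277684, plus strand) is shown because this gene dominates the ligand signal. It holds 250 bases before and 50 after the RefSeq start, which lies inside the GENCODE gene given above. It is 84.3% G or C, with 51 CpG dinucleotides.
Wnt4: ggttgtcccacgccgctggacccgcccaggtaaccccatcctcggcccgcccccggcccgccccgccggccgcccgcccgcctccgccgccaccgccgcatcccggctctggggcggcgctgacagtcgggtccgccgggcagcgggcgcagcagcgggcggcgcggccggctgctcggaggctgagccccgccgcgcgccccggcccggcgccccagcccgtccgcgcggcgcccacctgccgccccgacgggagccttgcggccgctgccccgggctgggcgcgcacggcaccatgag

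By level per exon union, the next ligands formed a group without clear steps. Wnt5a, a ligand known for signalling without β-catenin, had a normalised read count of 288 and a level of 1.34. Wnt7b, which acts in brain vessel growth, was at 175 with a level of 1.30. Wnt9a followed at 105 (level 1.14), Wnt5b at 75 (level 1.03) and Wnt11 at 104 (level 0.912). The level of Wnt5a was 1.46 times that of Wnt11, and a gap of under 1.5 times was not read as an order here. The ratio was 2.58 with coding length and 2.77 as deposited, where Wnt5a also exceeded Wnt7b by 1.54 and 1.65 times. With the longest transcript as the length, Wnt7b came before Wnt5a. Exons of Wnt5a, Wnt7b and Wnt11 overlap genes on the opposite strand over 4.58%, 6.61% and 8.80% of their length, and the strand setting of the counting is unknown.

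The remaining detected ligands were lower in read count. Wnt6 had a normalised read count of 41 (level 0.678, which Wnt11 exceeded by 1.34 times), Wnt3 of 34 (level 0.401), Wnt2 of 23 (level 0.370) and Wnt10b of 18 (level 0.192). Below the minimum were Wnt8b at 8, Wnt7a at 6, Wnt10a at 4, Wnt3a at 4, Wnt2b at 3 and Wnt1 at 2. Wnt8a, Wnt9b and Wnt16 were listed at 0. In total 10 of 19 ligands (52.6%) were detected, against 67.2% of all rows. The median over all 19 ligands, undetected ones included, was 18, above 5.17% of detected genes. Wnt1, the midbrain organiser ligand, and Wnt3a, the ligand most used to activate β-catenin in culture, were thus both under the minimum in this library. The depth in reads is unknown, so a count under 10 does not show that a ligand was absent.

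Ligands are often grouped by whether they mainly act through β-catenin, although the response depends on the receptor. Of 13 ligands usually placed in the β-catenin group, 5 were detected, where 67.2% of all rows were, with a summed level of 3.72. All 4 ligands usually placed outside it (Wnt4, Wnt5a, Wnt5b and Wnt11) were detected, with a summed level of 38.7, or 10.4 times as much. Wnt6 and Wnt16 were placed in neither group. This ratio rested on Wnt4. Without it the other group was at 3.27, which is 0.879 times the β-catenin group. That ratio ran from 0.857 to 1.22 with other length measures or as deposited.

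The Wnt genes that lie beside each other in the genome differed in level within each pair. There were 4 pairs of ligand genes within 100 kb. On chromosome 1, Wnt6 (74771892 to 74785322) was at 41 and Wnt10a (74791516 to 74804179), 6.19 kb away on the same strand, at 4. On chromosome 11, Wnt9a was at 105 and Wnt3a, 16.2 kb away on the opposite strand, at 4. A further chromosome 11 pair held Wnt3 at 34 and Wnt9b, 24.3 kb away, at 0. On chromosome 15, Wnt10b was at 18 and Wnt1, 11.7 kb away, at 2. Each pair thus had 1 detected gene and 1 below the minimum of 10. This split rests on that minimum. With a minimum of 3, Wnt10a and Wnt3a would also count as detected, and with 100 only Wnt9a would.

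The Frizzled receptors span the cell membrane, and 9 of 10 were detected (90%, against 67.2% of all rows). Fzd1 had a normalised read count of 962 and a level of 8.31, and Fzd7 had 949 and a level of 7.60. These close relatives differed by 1.09 times, and their order turned when coding length was used. Together they held 63.6% of the summed receptor level. With Fzd2, which belongs to the same subfamily and was at 221 (level 2.19), the share was 72.3%, or 62.3% in normalised read counts.

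The other receptors were lower. Fzd6, a receptor of planar cell polarity, was at 236 with a level of 1.78, Fzd5 at 328 (level 1.72) and Fzd3, which guides axon growth, at 452 (level 1.28). Neighbours in this order from Fzd2 to Fzd3 differed by under 1.5 times each by exon union, and with coding length or as deposited Fzd3 came before the others of these 4. Fzd3 had the third highest receptor read count but a long exon length of 12804 bases. Fzd10 was at 88 (level 0.982) and Fzd8 at 139 (level 0.844). Fzd4, the receptor for norrin in retinal vessels, was at 37 with a level of 0.200, and Fzd9 was the receptor under the minimum, at 8. Exons of Fzd5 and Fzd6 overlap opposite-strand genes over 17.8% and 3.15% of their length.

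Both co-receptors were detected at moderate to high levels. Lrp5 had a normalised read count of 3075 and a level of 11.5, above 74.8% of detected genes. Lrp6 had 1027 and a level of 2.72, above 43.0%. The level of Lrp5 was 4.20 times that of Lrp6, and between 2.99 and 3.15 times with the longest transcript, coding length or no length. The union of Lrp6 exons (13672 bases) is longer than its longest transcript (9368 bases), which lowers its level in the comparison by exon union.

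R-spondins, secreted proteins that strengthen Wnt signals by sparing Frizzled receptors from removal, had the lowest summed level of the roles. Rspo3 was at 76 (level 0.892) and Rspo1 at 24 (level 0.449). Rspo2 was at 2 and Rspo4 was listed at 0, so 2 of the 4 R-spondins were detected (50%, against 67.2% of all rows). Their summed level was 1.36, or 0.526% of that of all members. Exons of Rspo3 overlap an antisense gene over 13.1% of their length. The R-spondin receptor Lgr4 was at 355 (level 2.19), Lgr5 at 85 (level 0.300) and Lgr6 at 18 (level 0.0953). Of the ubiquitin ligases that remove Frizzled receptors, Znrf3 was at 328 (level 1.51) and Rnf43 at 3.

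**Figure D2:**
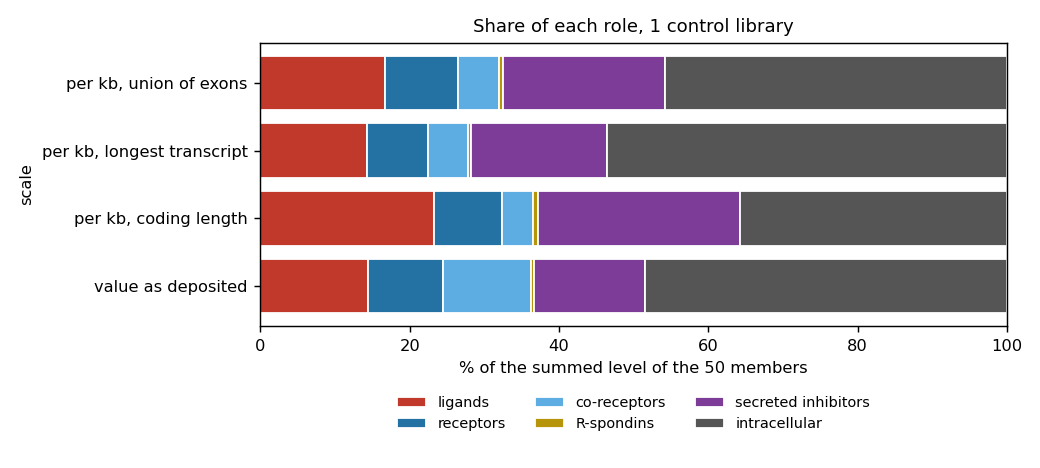
Share of each role in the summed level of the 50 members (%), in the 1 control library, with normalised read counts divided by the union of exons, the longest transcript or the coding length, or used as deposited. By the union of exons the intracellular members held 45.8%, the secreted inhibitors 21.7% and the ligands 16.7%. The co-receptors grew to 11.9% when length was not used.

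All 10 secreted inhibitors were detected (100%, against 67.2% of all rows), from 49 to 1685. Dkk3 was the highest, with a normalised read count of 1685 and a level of 18.2, above 82.5% of detected genes. It is a distant relative of the other Dkk proteins and was placed in this role by its symbol alone. Sfrp1, which binds Wnt proteins through a domain like that of Frizzled receptors, was at 1399 with a level of 11.6. Dkk2 was at 835 with a level of 8.17. These 3 genes held 67.8% of the summed inhibitor level. Exons of these 3 genes overlap no other annotated gene. Dkk3 exceeded Sfrp1 by 1.57 times, but by 1.08 times with coding length.

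The remaining inhibitors spanned a wide range. Dkk1, the prototype Lrp antagonist, was at 400 with a level of 5.98, and Wif1 was at 318 with a level of 4.75. Frzb was at 231 (level 2.59), Dkk4 at 60 (level 1.65) and Sfrp2 at 85 (level 1.43). Sfrp5 was at 49 (level 0.935) and Sfrp4 at 81 (level 0.703), the lowest level of the role. From Sfrp1 down to Wif1, neighbours in the order differed by under 1.5 times each by exon union. This did not hold with every measure, as Dkk2 exceeded Dkk1 by 2.19 times with coding length and 2.09 times as deposited, Dkk1 exceeded Wif1 by 1.75 times with coding length and Sfrp1 exceeded Dkk2 by 1.68 times as deposited. The Dkk genes summed to a level of 34.0 and the genes of Wnt-binding inhibitors to 22.0, so the Wnt-binding genes were at 0.648 times the Dkk genes, and at up to 0.726 times under other measures. Dkk3 carried the Dkk sum. Against Dkk1, Dkk2 and Dkk4 alone, which summed to 15.8, the Wnt-binding genes were at 1.39 times, and at 1.34 to 1.67 times under other measures. Exons of Sfrp2 overlap an antisense gene over 16.1% of their length.

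Set side by side, the inhibitors had a summed level of 56.0 and the ligands of 43.1. The ratio was 1.30, and between 1.03 and 1.28 with other length measures or as deposited. Without Wnt4 among the ligands it was 7.30, and without Dkk3 among the inhibitors it turned to 0.877, so each side rested on its highest gene. These are ratios of RNA and carry no information on protein.

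Dkk1 is a target of β-catenin signalling as well as an inhibitor of it. Its RefSeq promoter window (GRCm38.p6, chr19:30549447-30549746, minus strand) is shown because it was the member window with 2 matches to the core TCF/LEF motif. The motif searched on both strands was CTTTG followed by A or T at each of the next 2 positions, and matches are in capitals. They begin 117 and 98 bases before the RefSeq start. Such a match was found in 16.9% of the 32851 windows of the same length over all genes, and in 7 of 41 windows of members (17.1%). A match is a description of the letters and not evidence of binding.
Dkk1: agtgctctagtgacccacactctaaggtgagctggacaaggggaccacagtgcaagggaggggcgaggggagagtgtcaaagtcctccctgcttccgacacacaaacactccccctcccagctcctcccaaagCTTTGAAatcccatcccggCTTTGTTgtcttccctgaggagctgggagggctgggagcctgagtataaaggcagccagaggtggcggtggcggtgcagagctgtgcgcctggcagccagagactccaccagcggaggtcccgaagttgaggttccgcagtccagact

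Within the cell, β-catenin itself was the highest member. Ctnnb1 had a normalised read count of 13799 and a level of 96.4, above 96.6% of detected genes. β-catenin also links cadherins to the cytoskeleton, so its transcript is not a measure of Wnt signalling. The gene lies on chromosome 9, from 120929216 to 120960507 on the plus strand. Its exons overlap those of Ulk4, on the opposite strand, over 14.6% of their length, and Ulk4 was at 249.

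The scaffolds of the β-catenin destruction complex differed. Axin1, which is made constitutively, was at 1695 with a level of 16.1. Axin2, which is induced by β-catenin and is a widely used readout of the pathway, was at 180 with a level of 1.19, above 27.1% of detected genes. Axin1 exceeded Axin2 by 13.5 times, and by 9.11 to 10.6 times with other measures. An antisense gene covers 3.80% of the exon length of Axin2. The promoter window of Axin2 (GRCm38.p6, chr11:108920099-108920398, plus strand) is shown as that of the feedback gene. It has 31 CpG dinucleotides and no match to this motif, which says nothing on TCF/LEF sites elsewhere in the gene.
Axin2: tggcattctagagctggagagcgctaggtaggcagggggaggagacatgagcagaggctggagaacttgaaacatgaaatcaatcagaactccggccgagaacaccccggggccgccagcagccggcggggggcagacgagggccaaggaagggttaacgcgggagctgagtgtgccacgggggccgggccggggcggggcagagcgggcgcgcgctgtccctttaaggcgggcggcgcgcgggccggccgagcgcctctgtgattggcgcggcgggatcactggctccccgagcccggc

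The nuclear factors were measured through Tcf7l2 at 839 and Lef1 at 183. The level was 3.47 for Tcf7l2 and 0.755 for Lef1, a ratio of 4.59 that ran from 3.0 to 4.58 with other measures. Both have an exon union far longer than their longest transcript. With the longest transcript the level was 8.19 for Tcf7l2 and 1.82 for Lef1, which is 2.36 and 2.40 times higher. Antisense exons cover 13.7% of the exon length of Lef1. The family members outside the symbol rule, Tcf7l1 and Tcf7, were at 514 (level 4.75) and 105 (level 1.45).

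**Figure D3:**
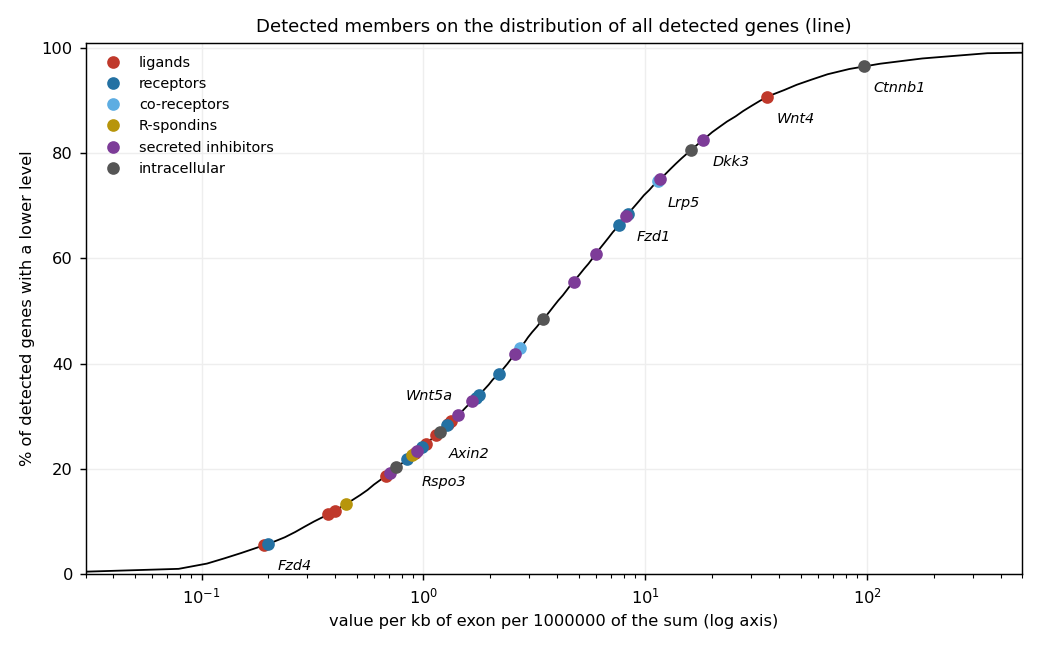
Position of the 38 detected members on the distribution of levels of the 15486 detected genes with a length (line), in the 1 control library. The x axis is the level on a log axis and the y axis is the percent of detected genes with a lower level. Ctnnb1 (96.6%), Wnt4 (90.7%) and Dkk3 (82.5%) lay at the upper end, and the ligands other than Wnt4 lay at or below 29.1%.

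Genes of the same pathway outside the symbol rule were taken from 9 lists. They comprised 66 further genes, of which 62 were detected (93.9%, against 67.2% of all rows), with a median of 434. Exons of 19 of these genes overlap a gene on the opposite strand. For Wnt secretion, the Wnt carrier Wls was at 3345 with a level of 13.8 and the acyltransferase Porcn at 397 with a level of 4.80. Wls exceeded Porcn by 2.88 times by exon union and by 8.43 times without length.

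A list of 8 further receptors, co-receptors and their partners was detected in full, against 67.2% of all rows. Ryk, a Wnt-binding pseudokinase, was at 1135 (level 9.08). Adgra2 and Reck, which together receive Wnt7 signals in vessels, were at 540 (level 3.39) and 110 (level 0.835). Ptk7, of planar polarity, was at 491 (level 3.31). Ndp, which encodes the Fzd4 ligand norrin, was at 106 (level 1.98), and Tspan12, which assists that pair, at 229 (level 2.51). The Wnt5a receptors Ror1 and Ror2 were low, at 54 (level 0.340) and 37 (level 0.316).

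The cytoplasmic machinery was detected throughout, where 67.2% of all rows were. Dvl1, Dvl2 and Dvl3, which relay the signal from Frizzled receptors, were at 1197 (level 8.69), 637 (level 3.67) and 799 (level 4.52). Exons of Dvl2 overlap those of Acadvl on the opposite strand over 18.3% of their length. Within the destruction complex Gsk3a had the highest level, 20.1 from a count of 1609, with an antisense gene over 28.3% of its exons. Csnk1a1 was at 4740 (level 16.4), Amer1 at 3008 (level 12.8), Gsk3b at 1272 (level 4.69), Apc at 1501 (level 3.38), Btrc at 831 (level 1.78) and Apc2 at 271 (level 0.871).

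All 11 nuclear partners were detected, against 67.2% of all rows, with a median of 545. Ctnnbip1, an inhibitor of the bond between β-catenin and TCF factors, had a level of 20.6 from a count of 1583, with an antisense gene over 25.8% of its exons. Tle3, a co-repressor, followed at a level of 10.8 and Pygo2, a co-activator, at 5.71. Pygo1 was lowest at 0.247. The 11 planar polarity genes were likewise detected, led by Scrib (level 8.52), Daam2 (5.77) and Prickle3 (4.47), with Celsr3 lowest at 0.132. Of 11 further genes listed as antagonists 10 were detected, again against 67.2% of all rows. Whether each of them, Cer1 included, acts on Wnt signals in mouse was not examined here. Cer1 had a level of 6.36 from a count of 305, Dact3 was at 3.12 and Kremen1, which binds Dkk proteins, at 2.42. Sost was at a count of 1.

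Genes known as targets of β-catenin in various tissues were not uniform. Of the 15 genes 12 were detected, where 67.2% of all rows were, and their list had a median of 183. Ccnd1 was at 6430 (level 49.5), Cd44 at 6466 (level 34.6) and Myc at 1025 (level 13.7). These 3 genes have many other inputs. Opposite-strand exons cover 23.4% of the exon length of Ccnd1. Axin2 and Lef1 are also on this list, at the values above, and Ascl2 was listed at 0.

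**Figure D4:**
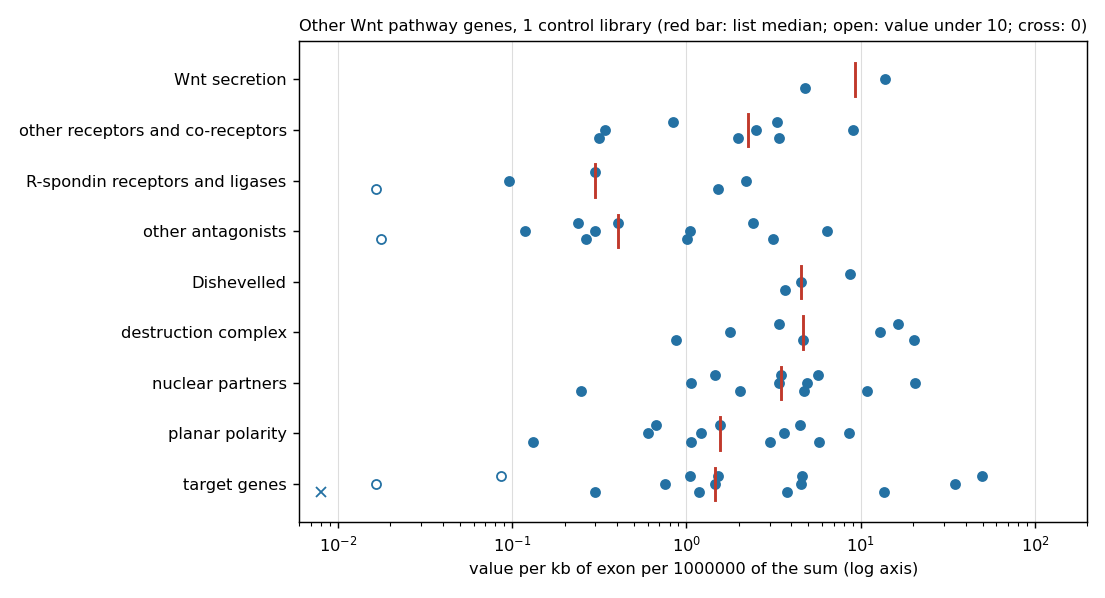
Level of each gene of the 9 other Wnt pathway lists (log axis) in the 1 control library. Each point is a gene, red bars are list medians, open points are below a normalised read count of 10 and the cross marks Ascl2 at 0. Some genes stand in more than 1 list. The medians ran from 0.300 for R-spondin receptors and ligases to 9.30 for Wnt secretion.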

How the data were processed

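The transcriptome of 1 control culture of mouse VM-derived glia was measured by RNA-seq of total RNA (Trizol extraction and a SMARTer library kit). The study's methods state that low-quality bases were trimmed, reads were mapped to GRCm38/mm10 with STAR and exonic reads of RefSeq genes were counted with HTSeq-count. The submitters' processing notes name TopHat and edgeR instead, and no versions are given. The deposited values were whole numbers that the authors called normalised read counts. As deposited by the authors, these values were treated as a score rather than as raw counts, because the normalisation, the strand setting and the handling of multi-mapped reads were not stated. The number of reads is therefore unknown, and no interval, floor or count test was used. The sum of the values was 27569507.

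Symbols were matched to GENCODE M21 (GRCm38), directly or through older symbols of RefSeq, for 22900 of 23282 rows (98.4%). This is not the annotation the authors counted on. Levels are per kb of the union of exons and per 1000000 of the sum. Exon overlaps came from bedtools 2.31.1. Promoter windows came from RefSeq (GRCm38.p6) and were held for 33 of the 50 members. Protein sequences were not analysed here. The members and lists were chosen with earlier results of these data known, and Tcf7 and Tcf7l1 were placed beside Tcf7l2 after their values were seen. Every member is reported. Of the other pathway lists, every gene is named up to 8 genes, and beyond that the 3 highest by level, the lowest and those at 0. Marker lists are given as ranges or by single genes. Alternatives were detection minima of 1, 3 and 100, other length measures, totals without Rn45s or the 10 highest genes, and removal of the highest ligand or inhibitor. The code for length scaling and percentiles was checked on made-up values with known answers, which does not show that the scaling suits these data. Python 3.11.15, numpy 2.4.6, pandas 2.3.3 and matplotlib 3.10.9 were used.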

Additional observations from a re-analysis of the deposited data

How the results depend on the processing

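A result was taken as moved when it changed by more than 1.5 times, since no replicate gives a spread. This was counted over detection by role and list, the median member, role shares, the highest gene of each role and the inhibitor over ligand ratio. Of these values, 80 stayed within that limit, 12 did not and the inhibitor over ligand ratio turned direction in 1 setting. Some of the 80 could not have moved, such as the count of a fully detected role at a lower minimum. The other ratios were not in this count. Some of them moved, such as Wls over Porcn (2.88 to 8.43), or turned, such as Fzd1 over Fzd7 (1.09 to 0.903 with coding length). With a minimum of 100, detected members fell to 25, ligands to 5, R-spondins to 0, secreted inhibitors to 6, R-spondin receptors and ligases to 2 and other antagonists to 4, and the median member, at 96, was above 0% of the genes kept. With a minimum of 1, detected ligands numbered 16. These shifts follow from the minimum itself. Without length scaling, the share of the co-receptors was 11.9% and that of the R-spondins 0.296%, because the genes differ in exon length. With coding length Fzd1 ranked 2 among the receptors. The inhibitor over ligand ratio was 7.30 without Wnt4 and turned to 0.877 without Dkk3. Single-member values per 1000000 rose by a common factor of 1.02 without Rn45s and 1.15 without the 10 highest genes. No paired analysis was possible because there was 1 library.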

Other observations

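Promoter windows were held for 33 members, and their CpG content did not sort the members by detection. The most CpG-rich window of each gene had a median of 28 CpG dinucleotides over the 24 detected members (9 to 58) and of 31 over the 9 members below the minimum (6 to 53). The ligand Wnt3a, with 45 CpG in its window, was at a normalised read count of 4, and the receptor Fzd9, with 53, was at 8. Dkk2, with 11, was at 835, and Dkk1, with 9, was at 400. Over all 32851 windows of the table the median was 7, against 26 over the 41 member windows. The 4 genes named here were picked with their values in view, and no test was made.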
